A study of Mus musculus with 3 samples.

Results

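Cycling cells of the mouse brain myeloid compartment, meaning cells that carried transcripts of several genes of dividing cells, made up 114 of the 881 cells kept in libraries 2 and 3, out of 2149 cells in the whole series. A cell was called cycling when at least 3 of 20 cell cycle genes had a UMI (unique molecular identifier, 1 counted RNA molecule) and when the natural killer genes Ncr1, Klrb1c and Gzma together took under 0.05% of its UMIs. The members were chosen by these measured UMI counts, after cells with fewer than 500 genes or over 10% mitochondrial UMIs had been left out. Library 2 held 31 of these cycling cells and library 3 held 83.

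The cells came from whole brain without the cerebellum and had been sorted for Cd11b, an integrin chain encoded by Itgam that marks the surface of the myeloid lineage. All animals were C57BL6J females aged 5 months. The labels describe a Ctrl group of 1 untreated animal, a D0 group of 2 pooled animals fed 1200 mg/kg PLX5622 in the diet for 14 days, and a D2 group of 1 animal fed the same diet for 14 days and then control diet for 2 days. PLX5622 inhibits Csf1r, a growth factor receptor on which microglia depend for survival, and withdrawal of the drug is followed by regrowth of the population. The preparation protocol speaks of 4 samples handled together, and 3 are described. No source used here ties the barcode number of a library to Ctrl, D0 or D2, so libraries 2 and 3 are set side by side as libraries, with no comparison of the study's groups. Each library is 1 sample, so no p-value was computed, and the 95% intervals given cover counting error only.

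A dividing cell copies its DNA in S phase, with help from the minichromosome maintenance helicase, PCNA and the enzymes that make deoxynucleotides, and separates its chromosomes in mitosis. Many genes of mitosis are transcribed in a wave that peaks shortly before division, and the proteins are destroyed afterwards. Microglia renew themselves by division inside the brain, and after depletion the surviving cells divide rapidly. Dendritic cells and monocytes are supplied mainly by bone marrow precursors, although their immature forms can still divide.

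The promoters of 4 of the genes used or listed as markers are shown because the shared timing of such genes is known to run through a short element, the cell cycle genes homology region (CHR), and through CCAAT boxes. The sequences are from RefSeq on GRCm38.p6 and run from 250 bases before the start of the gene to 50 after it: Ccnb2 at chr9:70421505-70421804 on the minus strand, Cdca3 at chr6:124829926-124830225 on the plus strand, Mki67 at chr7:135716330-135716629 on the minus strand and Top2a at chr11:99024140-99024439 on the minus strand. Ccnb2 encodes a mitotic cyclin, Cdca3 a trigger of mitotic entry, Mki67 the Ki-67 protein that coats mitotic chromosomes, and Top2a the topoisomerase that untangles them. Capitals mark TTTGAA or TTTAAA (CHR) and CCAAT, each on either strand, with overlaps between them allowed.
Ccnb2: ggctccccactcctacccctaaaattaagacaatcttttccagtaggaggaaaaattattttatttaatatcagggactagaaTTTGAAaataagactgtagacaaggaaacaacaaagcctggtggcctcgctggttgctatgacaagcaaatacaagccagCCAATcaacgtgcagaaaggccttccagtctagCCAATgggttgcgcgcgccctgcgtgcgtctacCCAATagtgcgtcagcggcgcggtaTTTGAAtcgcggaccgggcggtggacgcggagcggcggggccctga
Cdca3: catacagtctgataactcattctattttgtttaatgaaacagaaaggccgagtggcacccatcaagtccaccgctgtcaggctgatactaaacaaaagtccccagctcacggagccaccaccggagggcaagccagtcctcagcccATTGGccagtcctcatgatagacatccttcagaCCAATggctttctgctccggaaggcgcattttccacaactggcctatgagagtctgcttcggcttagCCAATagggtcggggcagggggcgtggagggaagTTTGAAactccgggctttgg
Mki67: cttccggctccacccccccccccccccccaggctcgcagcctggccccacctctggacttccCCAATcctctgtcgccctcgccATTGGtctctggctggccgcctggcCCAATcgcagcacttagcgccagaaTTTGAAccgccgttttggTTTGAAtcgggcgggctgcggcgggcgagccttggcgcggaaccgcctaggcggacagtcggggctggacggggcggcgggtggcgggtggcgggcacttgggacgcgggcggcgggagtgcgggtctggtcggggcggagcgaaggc
Top2a: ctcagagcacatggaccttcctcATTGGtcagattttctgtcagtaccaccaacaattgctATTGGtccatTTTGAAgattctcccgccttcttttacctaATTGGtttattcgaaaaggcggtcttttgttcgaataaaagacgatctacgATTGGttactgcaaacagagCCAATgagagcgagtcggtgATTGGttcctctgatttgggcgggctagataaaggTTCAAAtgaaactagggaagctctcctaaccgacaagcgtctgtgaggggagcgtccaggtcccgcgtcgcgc
Of the 20 genes of the rule, 16 had a promoter of this length in the RefSeq table. A CHR was present in 15 of them and in 27.8% of 27025 promoters of the same length, and TTTGAA alone in 12 of them and in 18.1% of all. CCAAT was present in 14 of the 16 and in 37.9% of all promoters. The E2F letters TTTCCCGC, TTTGGCGC, TTTCGCGC or TTTGCCGC were present in 1 of the 16, Cdk1, and in 2.32% of all. These letter matches describe the sequences and are not measurements of binding.

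Library 3 held the larger share of cycling cells. By the rule 83 of its 286 kept cells were cycling (29.0%, exact binomial interval 23.8 to 34.7). Of 595 kept cells of library 2, 31 were (5.21%, 3.57 to 7.31). Cycling cells were deep: their UMI totals ran from 6586 through a median of 12005 to 17788 in library 2 and from 5331 through 14608 to 57718 in library 3, against medians of 5865 and 6037 in the other kept cells. Because a rule on detected genes favours deep cells, every cell was also thinned at random to 2000 UMIs. Library 3 then had 42 cycling cells of 282 (14.9%, 10.9 to 19.6), with 4 shallower cells left out. Library 2 had 22 of 564 (3.90%, 2.46 to 5.85), with 31 left out. No barcode was shared between libraries. Scrublet marked 7 of 2144 cells as doublets, and 1 of them was a cycling cell, in library 3.

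The 20 rule genes were seen more broadly in the cells of library 2. The number with a UMI per cycling cell had a median of 17 in library 2 and 10 in library 3, although the cells of library 3 were deeper. In library 2, 23 of 31 cells had at least 10 of the genes, and in library 3 43 of 83 did. At the edge of the rule, 5 cells of library 2 and 11 of library 3 had exactly 3 of the genes, while 22 and 21 other cells had 2 and stayed outside. The chromosome passenger gene Birc5 was counted in 25 of 31 cells of library 2 at 474 counts per 1000000 (CPM) and in 67 of 83 of library 3 at 298 CPM. Mki67 was counted in 23 and 49 cells, at 220 and 112 CPM. Top2a was counted in 26 and 47 cells, at 387 and 189 CPM, and Cdca3 in 23 and 58 cells, at 180 and 139 CPM. Tk1, thymidine kinase of the deoxynucleotide salvage pathway and not a gene of the rule, was counted in 18 and 51 cells, at 143 and 111 CPM. These values follow from the rule and describe the members.

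**Figure D1:**
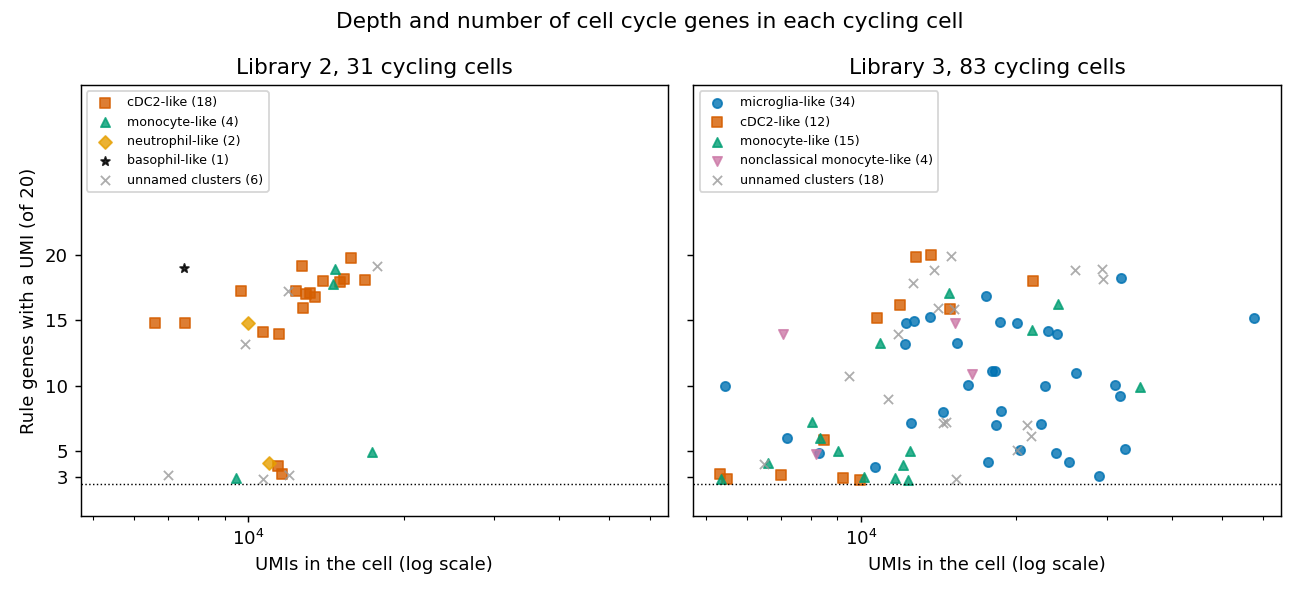
UMIs per cell (horizontal, log scale) against the number of the 20 rule genes with a UMI (vertical, jittered) for the 31 cycling cells of library 2 and the 83 of library 3, with symbols for the class of the cell and the rule's minimum as a dotted line. Most cells of library 2 lie at 14 genes or more, while those of library 3 spread from 3 to 20 genes and reach 57718 UMIs.

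The cycling cells were not 1 cell type. Kept cells of both libraries were clustered with the cell cycle genes left out, and clusters were called "X-like" from marker lists, by a scoring rule settled after the clusters had been seen. In library 3, 34 of 83 cycling cells (41.0%, 30.3 to 52.3) were microglia-like, 15 (18.1%) monocyte-like, 12 (14.5%) like type 2 conventional dendritic cells (cDC2-like) and 4 (4.82%) like nonclassical monocytes, and 18 (21.7%) fell in unnamed clusters. In library 2, 18 of 31 (58.1%, 39.1 to 75.5) were cDC2-like, 4 (12.9%) monocyte-like, 2 neutrophil-like and 1 basophil-like, and 6 (19.4%) were in unnamed clusters. None of the 31 was microglia-like, which allows a share of up to 9.68% by 3 counts (the exact binomial interval ends at 11.2%), although library 2 held 103 microglia-like cells that were not cycling. By the marker lists the label of myeloid cells held for most members, with exceptions and an unnamed cluster given below. Markers of cDC2 were not limited to the cDC2-like class. At least 5 of the 10 on that list had a UMI in 26 of 83 cycling cells of library 3 and in 21 of 31 of library 2. In library 3 these included 11 of the 12 cDC2-like cells and 11 of the 18 in unnamed clusters. They also included 3 microglia-like cells, so such a count alone does not name a cell.

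**Figure D2:**
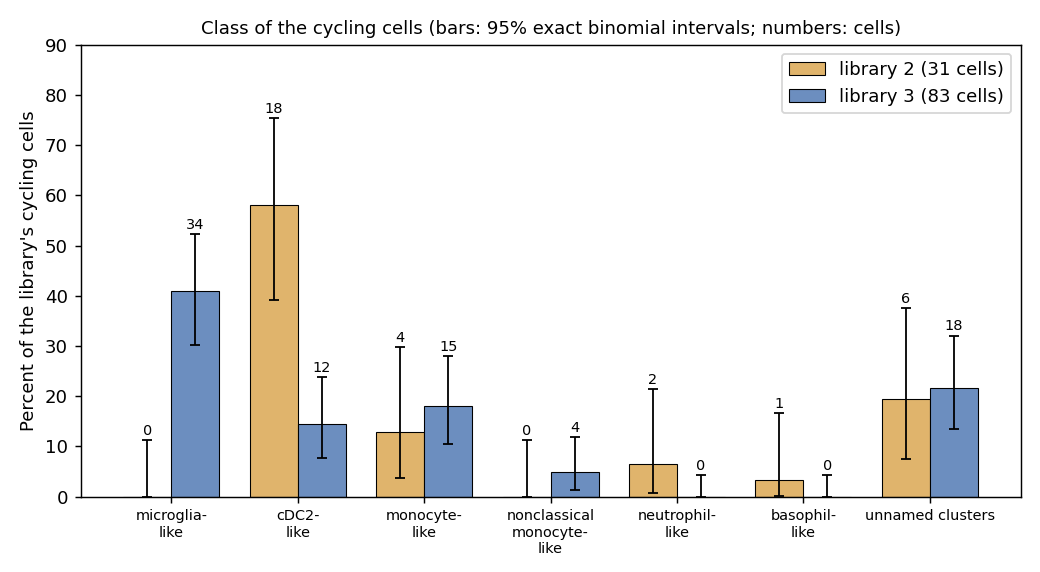
Percent of each library's cycling cells (vertical) in each class (horizontal), with exact 95% binomial intervals as lines and the number of cells above each bar. Microglia-like cells are 34 of 83 in library 3 and 0 of 31 in library 2, and cDC2-like cells are 12 of 83 and 18 of 31.

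The share of a class that was cycling also differed in size between the libraries. Among microglia-like cells it was 85.0% in library 3 (34 of 40, interval 70.2 to 94.3) and 0% in library 2 (0 of 103), where the exact binomial interval ended at 3.52%. Among cDC2-like cells it was 29.3% in library 3 (12 of 41, interval 16.1 to 45.5) against 13.6% (18 of 132, interval 8.29 to 20.7), and the intervals overlapped. Among monocyte-like cells the counts were 15 of 64 (23.4%, 13.8 to 35.7) and 4 of 75 (5.33%, 1.47 to 13.1). These shares were not thinned. The microglia-like class joins clusters that split by library. The smaller held 39 cells, all of library 3, with 34 cycling and a median of 18301 UMIs. The larger held 103 cells of library 2 and 1 of library 3, with 0 cycling and a median of 4733 UMIs. The 85.0% and 0% thus set different clusters side by side.

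Microglia markers were also counted cell by cell. The clusters had been named from the same list, so the numbers describe the class and are no separate support for its name. The list of 12 microglia markers includes P2ry12, the ADP receptor that guides microglial processes, Tmem119, a surface protein of adult microglia, and Sall1, a transcription factor of microglial identity. The 34 microglia-like cycling cells had between 3 and 11 of the markers, with a median of 10. Among all 31 cycling cells of library 2 the highest number was 3. At least 6 of the 12 were present in 34 of 83 cycling cells of library 3 and in 0 of 31 of library 2. P2ry12, Tmem119, Sall1, Siglech, P2ry13, Olfml3 and Slc2a5 had no UMI in any cycling cell of library 2. The 2 sets of cells with many markers overlap but are not the same, since 32 of the 34 microglia-like cells and 2 cells of unnamed clusters had at least 6 markers.

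**Figure D3:**
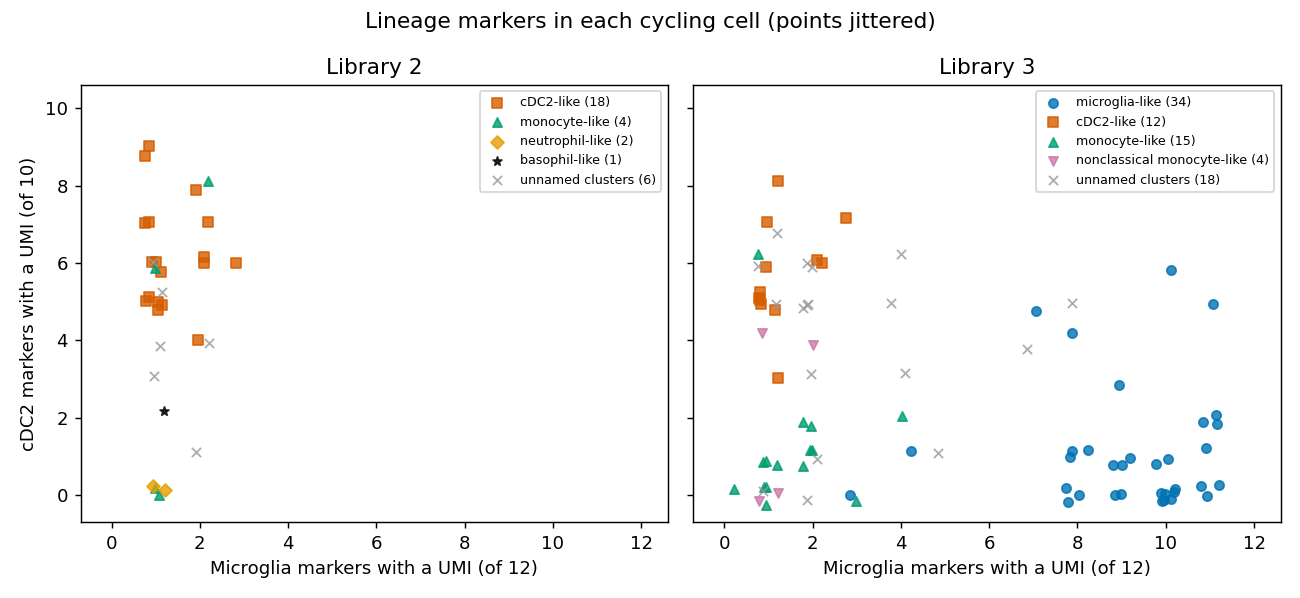
Number of the 12 microglia markers (horizontal) and of the 10 cDC2 markers (vertical) with a UMI in each cycling cell, jittered, in library 2 and library 3. Cells of library 2 reach at most 3 microglia markers, while most microglia-like cells of library 3 lie at 8 to 11 with few cDC2 markers.

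Many of these cells also carried markers of other classes. Of the 34 microglia-like cycling cells, 21 had at least 50% of the markers of 2 or more lists, 12 of them reached that share for the neutrophil list and 10 for the monocyte list. They were the deepest class, with a median of 18456 UMIs, against 4290 in the 82 microglia-like cells of library 2 without a rule gene, of which 17 had such a mixture. With every cell thinned to 4000 UMIs the medians in the cycling and these other microglia-like cells were 6.5 and 7 of 12 microglia markers, 1.5 and 2 of 12 neutrophil markers, and 1 and 1 of 12 monocyte markers. Neutrophil markers summed to 3414 CPM in the microglia-like cycling cells and to 362296 CPM in neutrophil-like cells. Over all cycling cells, 11 of 31 (library 2) and 40 of 83 (library 3) had such a mixture, against 64 of 247 and 36 of 111 other cells at least as deep as the shallowest member. Whether doublets or free RNA have a part in these mixtures was not tested.

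The naming of this class turned on the clustering. When library 1 was clustered together with the others, the 34 cells spread over 6 clusters, with 12 in an unnamed cluster led by Ttr, 10 in a neutrophil-like cluster of 150 cells and 9 in a monocyte-like cluster, and none was called microglia-like. With the cell cycle genes kept in the clustering, 0 of 83 cells were microglia-like either. Naming each cell by the list of which it had the largest share, with no clustering, called 28 of 83 cycling cells of library 3 microglia-like and 0 of 31 of library 2. Without the cells of mixed markers library 3 had 13 of 43 (30.2%), against 0 of 20 for library 2.

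Of the genes on the marker lists, those of cells outside the myeloid lineages were rare, and so were basophil markers. The lists do not hold every such gene. In the clustering of libraries 2 and 3, an unnamed cluster was led by Ttr, Ptgds and Sparcl1, which are on no list. It held 16 cycling cells, 2 of library 2 and 14 of library 3. The source of these transcripts was not tested. The T cell genes Cd3e, Cd3d, Cd3g and Cd4 had no UMI in cycling cells. In library 2, 1 cell had 4 of 7 B cell markers, and the joining chain gene Jchain of antibody-secreting cells was counted 310 times, of which 309 came from 1 cell. The basophil protease gene Prss34 was counted 376 times in 1 cell of library 2, the basophil-like one. In library 3, 1 cell of the microglia-like class had 6 of 10 natural killer markers. The same cell had 6 of 8 mast cell and basophil markers and 10 of 12 microglia markers. Itgam, the gene of the sorted protein, is listed under 2 gene identifiers. Under the main one it was counted in 11 of 31 cells of library 2 (50.3 CPM) and in 60 of 83 of library 3 (126 CPM).

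Over all cycling cells, library 3 against library 2, the largest ratios followed these identities. Ratios are log2 of CPM after a single added count, for genes with at least 50 UMIs in both sums together. Of 3858 such genes 13.4% were at least 2-fold higher and 4.77% at least 2-fold lower in library 3. The 8 of 12 microglia markers that reached this minimum were at least 2-fold higher (median log2 ratio 6.66, against 0.21 over all genes). With the 4 of them that had no UMI in library 2 set at 3 counts there, the median was 3.69. Those 4 reached the minimum through library 3 alone, so they could only come out higher. All 7 MHC class II genes compared were at least 2-fold lower (median -1.45). The chemokine gene Ccl12 had 3139 CPM in library 3, in 52 of 83 cells, and 1 UMI in library 2. The lipoprotein lipase gene Lpl had 313 CPM in 53 cells of library 3, but no UMI in library 2. The secretory granule genes Ngp and Camp of immature neutrophils had 3713 and 3461 CPM in library 2, where 14 and 10 cells had a UMI, against 17.5 and 9.49 CPM in library 3. The cell with most gave 862 of 1401 Ngp UMIs, and for Camp 660 of 1306, in library 2. With such a difference in makeup, libraries were compared further within a class.

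The microglia-like cycling cells of library 3 were set against the 82 microglia-like cells of library 2 that had no UMI of a rule gene, since library 3 held 3 such cells. The rule also drew this contrast, so its cell cycle values are a description only. This contrast differs in library and in cluster as well as in cycling, and these cannot be told apart. The gap in depth given above goes with it. Of 2828 genes 21.7% were at least 2-fold higher and 8.35% at least 2-fold lower in the cycling cells. Of the 11 inflammatory genes compared, 4 were at least 2-fold higher (Tnf, Ccl2, Ccl9 and Il1a) and 4 at least 2-fold lower (Il1b, Ccl3, Cd83 and Socs3). Their median log2 ratio was -0.52, against 0.36 over all genes, and 5 of the 11 lay above 0. Ccl12 and Cxcl10, given next, are not on that list. Ccl12 had 5989 CPM (5807 to 6174) and a UMI in 34 of 34 cells, with a median of 93.5 and a maximum of 405 UMIs, against 356 CPM and 38 of 82 cells. Cxcl10, an interferon-induced chemokine, had 1100 and 124 CPM, in 26 of 34 and 9 of 82 cells. Ccl2, the ligand of Ccr2 that recruits monocytes, had 932 and 141 CPM, in 32 of 34 and 9 of 82 cells. Tnf had 476 and 131 CPM, in 23 of 34 and 18 of 82 cells.

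Genes of glycolysis were higher in the same contrast. Of 11 compared, 6 were at least 2-fold higher and none 2-fold lower (median log2 ratio 1.12, against 0.36 over all genes). Ldha, lactate dehydrogenase, had 876 CPM (808 to 949) and a UMI in 34 of 34 cells, against 216 CPM (176 to 263) and 49 of 82 cells. Gapdh had 2917 and 790 CPM. Tpi1, Pgam1, Eno1 and Pkm were the other 4. The scavenger receptor gene Cd36 had 104 CPM in 23 of 34 cells and 2 UMIs in 2 of 82 cells. Gmnn, an inhibitor of repeated replication, had 100.1 and 6.43 CPM, in 29 of 34 and 3 of 82 cells. The gene 2810417H13Rik, which encodes a PCNA-associated factor, had 244 CPM in 32 of 34 cells and no UMI in the 82 cells. Cd36 and 2810417H13Rik reached the UMI minimum through the cycling cells alone. The rule favours genes of division, so the values of Gmnn and 2810417H13Rik describe the members. Some high sums rested on few cells: Arg1 came from 2 cells, and 288 of 297 Cxcl13 UMIs from 1 cell.

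Genes of mature microglia were lower. Of 11 microglia markers compared, 6 were at least 2-fold lower and none 2-fold higher (median log2 ratio -1.38). P2ry12 had 206 CPM (174 to 243) in 32 of 34 cycling cells against 904 CPM (820 to 994) in 74 of 82, and at 2000 UMIs it was seen in 12 of 34 against 57 of 77 cells. Tmem119 (618 against 450 CPM) and Olfml3 (1019 against 625 CPM) lay on the other side by less than 2-fold. Of 20 genes of macrophage maturation 11 were at least 2-fold lower and 3 higher. Apoe, the lipid carrier, had 1210 against 14352 CPM, with medians of 3 and 20 UMIs per cell in spite of the greater depth of the cycling cells. Ctsd, a lysosomal protease, had 2123 against 10291 CPM and Trem2, a lipid-sensing receptor, 753 against 2544 CPM. Lgals3, galectin-3, had 710 CPM (648 to 775) and 636 CPM (566 to 713), with overlapping intervals. Csf1r, the target of the drug, had 579 CPM (524 to 639) in 34 of 34 cells against 1101 CPM (1008 to 1200) in 81 of 82.

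All 7 MHC class II genes compared were at least 2-fold lower in the cycling microglia-like cells (median log2 ratio -2.58). H2-Aa had 366 against 3318 CPM, but the median was 1 UMI per cell in both groups, so the sums rest on a minority of cells. These genes are abundant in the cDC2-like cells of both libraries.

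**Figure D4:**
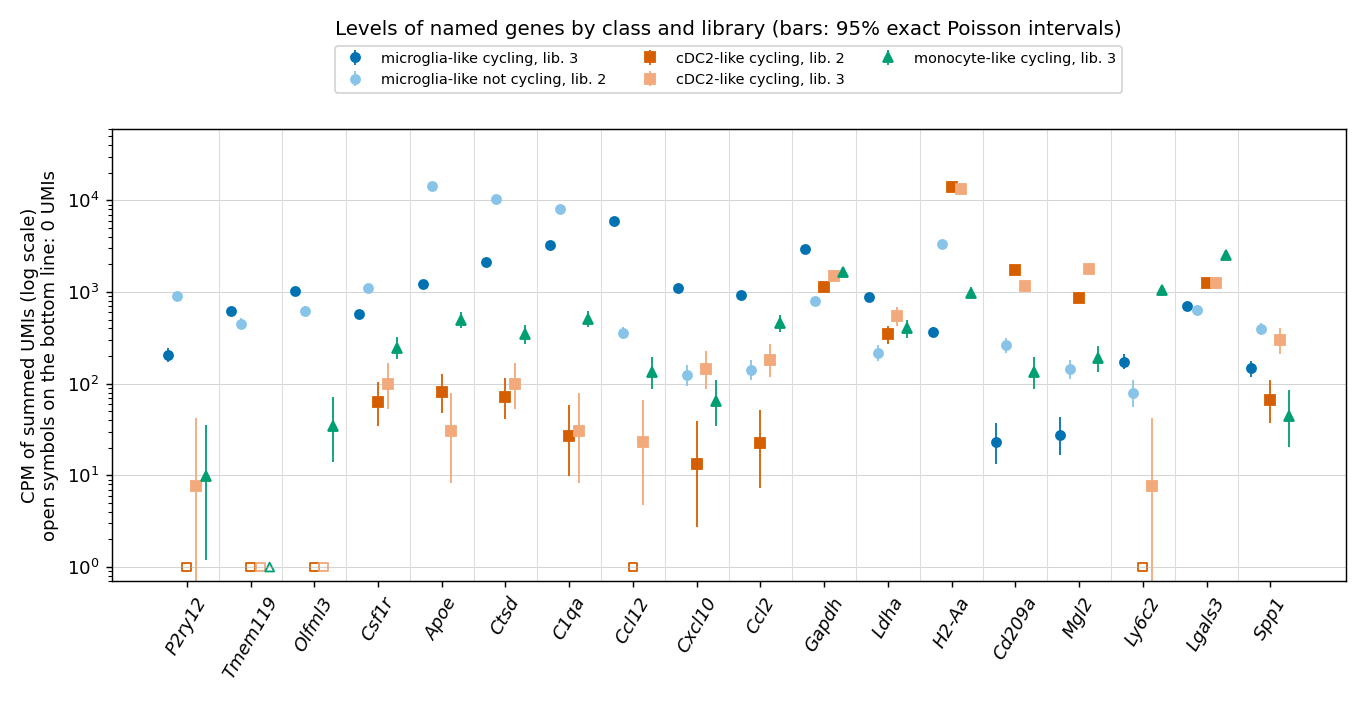
Levels in CPM of summed UMIs (vertical, log scale) of 18 named genes (horizontal) in 5 groups of cells, with exact 95% Poisson intervals, and open symbols on the lowest line for 0 UMIs. Apoe, Ctsd and P2ry12 lie lower and Ccl12, Cxcl10, Ccl2, Gapdh and Ldha higher in microglia-like cycling cells of library 3 than in microglia-like cells of library 2 that were not cycling.

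Over both libraries together, the cDC2-like cycling cells formed the largest class with members in each, with 18 cells in library 2 and 12 in library 3. It was taken for the comparison of libraries after the classes had been counted, since the largest class had no member in library 2. H2-Aa had 14131 CPM in the cells of library 2, where library 3 had 13290 CPM, and the lectin gene Cd209a had 1745 and 1169 CPM in 18 of 18 and 11 of 12 cells. Flt3, the growth factor receptor of dendritic cells, had 2 and 4 UMIs, and Csf1r had 62.6 CPM (34.2 to 105) and 99.3 CPM (52.9 to 170). Of 908 genes 2.75% were at least 2-fold higher and 2.53% at least 2-fold lower in library 3, and all 908 had a median log2 ratio of 0.02.

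Of the 10 highest ratios of library 3 to library 2, 5 belonged to genes of proteins of the endoplasmic reticulum, a grouping made after the values were seen and not a counted list. The chaperone gene Hsp90b1 had 634 CPM there (505 to 786), against 210 CPM (155 to 280) in library 2. Calr, a calcium-binding chaperone, had 435 and 152 CPM. Sdf2l1, Manf and Pdia6, of the same compartment, had log2 ratios of 1.65, 1.39 and 1.18. Sdf2l1 and Pdia6 also had log2 ratios of 1.54 and 1.61 between the cDC2-like cells without a rule gene, 11 in library 3 and 83 in library 2, where 2.61% of 1530 genes were at least 2-fold higher and 5.95% lower. Spp1, osteopontin, had 298 CPM (212 to 407) in 8 of 12 cells and 67.1 CPM (37.6 to 111) in 7 of 18. Lower in library 3 were the chemokine genes Ccl3, at 244 against 1373 CPM, and Ccl4, at 420 against 2196 CPM. Their sums leaned on single cells, which gave 145 of 307 Ccl3 UMIs and 220 of 491 Ccl4 UMIs in library 2. Rrm2, a ribonucleotide reductase subunit and a rule gene, had 61.1 against 237 CPM. The members were chosen by the rule genes, and these groups passed the rule by different margins. At least 10 of the rule genes had a UMI in 6 of 12 cells of library 3 and in 16 of 18 of library 2. The Rrm2 values and other cell cycle values of this pair of groups thus describe the members. All 7 glycolysis genes compared were higher, none by 2-fold or more (median 0.65).

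Against cDC2-like cells of library 2 without a rule gene, of which there were 83, the 18 cycling cells differed in genes of division. The rule itself drew this contrast, so the values describe the members and are no separate support for division. Of 1852 genes 7.88% were at least 2-fold higher and 2.7% at least 2-fold lower. Among genes not in the rule, 6 of 40 mitosis genes reached the UMI minimum, and all were at least 2-fold higher (median log2 ratio 3.82). So were the 2 of 33 replication genes that reached it. The same held for 13 of 16 chromatin, tubulin and nuclear lamina genes, such as H2afz, Hmgb2 and Tubb5 (median 3.27). A gene low in the other cells can reach the minimum through the cycling cells alone. Ube2s, which extends ubiquitin chains on mitotic proteins, had 675 CPM in 18 of 18 cells against 119 CPM in 49 of 83. Tmpo, of the nuclear lamina, had 358 against 58.1 CPM. The 6 cDC2 markers compared had a median log2 ratio of -0.44 and none was past 2-fold, and the 7 MHC class II genes had a median of -0.25. Lower in the cycling cells were Ccr7, the receptor for migration to lymph nodes, with 31.3 CPM in 3 of 18 cells against 122 CPM in 23 of 83, and Ccl5, with 93.9 against 597 CPM. The Ccl5 difference is one of sums and not of the share of cells, since 12 of 18 cycling and 47 of 83 other cells had a UMI and 1 cell gave 190 of the 411 UMIs of the others. Aldoa of glycolysis had 44.7 against 289 CPM, the only 1 of 10 glycolysis genes compared that was at least 2-fold lower. Of the 10, 6 were higher, none by 2-fold or more (median log2 ratio 0.25, against 0.11 over all genes). In library 3 the same contrast, of 12 against 11 cells, gave 8.57% higher and 2.32% lower of 560 genes.

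The monocyte-like cycling cells of library 3 expressed Ly6c2, the surface antigen of classical monocytes, at 1050 CPM in 12 of 15 cells. Against 26 monocyte-like cells of the same library without a rule gene, 3.5% of 1171 genes were at least 2-fold higher and 1.96% lower. The rule drew this contrast as well, so its cell cycle values are a description only. All 10 genes compared of the chromatin and tubulin list were at least 2-fold higher (median log2 ratio 2.07), while 4 of 6 MHC class II genes were at least 2-fold lower (median -1.07). H2-Aa had 981 against 3100 CPM, with medians of 1 and 0 UMIs per cell, and 1 cell gave 181 of the 198 UMIs of the cycling cells. The 9 monocyte markers compared had a median of -0.03. The complement gene C1qa had 505 CPM in 8 of 15 of these cycling cells and 1 UMI in the 4 monocyte-like cycling cells of library 2. Over that pair of groups 7.17% of 753 genes were at least 2-fold higher and 4.78% lower in library 3, with only 4 cells on 1 side.

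The classes of library 3 were also compared over myeloid transcription factors and growth factor receptors. Of 2228 genes compared between microglia-like and cDC2-like cycling cells, 19.1% were at least 2-fold higher and 6.15% lower in the former. Between microglia-like and monocyte-like cycling cells the shares were 12.8% higher and 6.42% lower of 2366 genes. Of 13 transcription factors compared, 7 were at least 2-fold higher and 2 lower in microglia-like than in cDC2-like cells (median log2 ratio 1.30, against 0.22 over all genes). Against monocyte-like cells 3 were higher and 3 lower (median -0.33, against 0.06 over all genes). Of 8 receptor genes, 4 were higher and 1 lower in the first comparison (median 1.01), and 5 higher and 2 lower in the second (median 1.55). Spi1, the myeloid lineage factor PU.1, was even across them, at 535 CPM in microglia-like, 596 in cDC2-like and 491 in monocyte-like cycling cells. Irf8, a partner of PU.1, had 383, 7.64 and 144 CPM. The 7.64 CPM in cDC2-like cells lie under the 22.9 CPM that a count of 0 allows in that group. Cebpb, a factor of monocytes and macrophages, had 1290, 130 and 2502 CPM. Csf1r had 579, 99.3 and 248 CPM in the same order, with a UMI in 34 of 34, 6 of 12 and 11 of 15 cells.

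The balance of replication and mitosis UMIs varied from cell to cell, and no cell was assigned a stage. Per 10000 UMIs the median over cycling cells was 17.9 UMIs of 33 replication genes and 40.2 of 40 mitosis genes in library 2, and 12.7 and 21.9 in library 3. None of the genes in these lists belongs to the rule. The rule draws largely on genes of mitosis, however, such as Ccnb2 and Top2a, so members were chosen for transcripts of similar timing. The balance thus describes the members, and the lists of 33 and 40 genes differ in size. More replication than mitosis UMIs were counted in 7 of 31 cells of library 2 and in 28 of 83 of library 3. By class in library 3, the median mitosis value was 19.0 in microglia-like, 29.6 in cDC2-like and 10.8 in monocyte-like cells, and in cDC2-like cells of library 2 it was 45.3. Of 25 mitosis genes compared over all cycling cells, 8 were at least 2-fold lower in library 3 and none 2-fold higher (median log2 ratio -0.82). Among cDC2-like cells alone none of 9 passed 2-fold, with a median of -0.23. The 15 nucleotide synthesis genes took 0.113% of all UMIs in cycling cells of library 2 and 0.143% in library 3, while the 16 chromatin and tubulin genes took 1.96% and 1.19%.

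**Figure D5:**
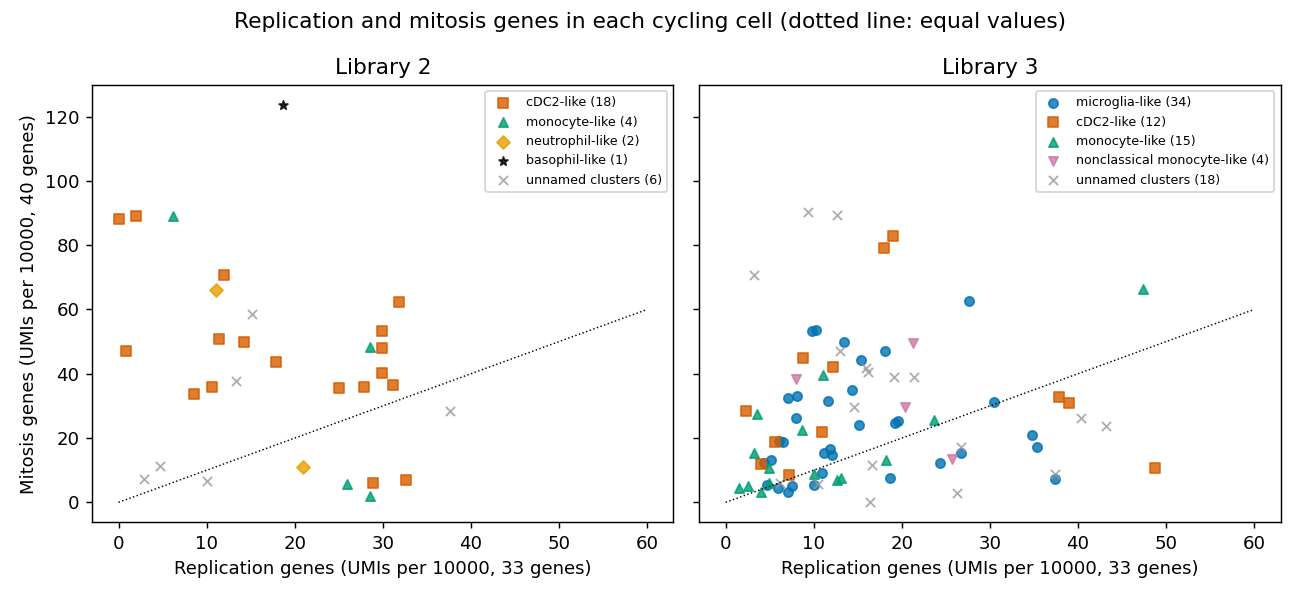
UMIs of 33 replication genes (horizontal) and 40 mitosis genes (vertical) per 10000 UMIs in each cycling cell of library 2 and library 3, with a dotted line where they are equal. Cells above the line have more mitosis than replication UMIs: 7 of 31 cells in library 2 and 28 of 83 in library 3 lie below it. The rule favours genes of mitosis and the lists differ in size, so the line marks no stage.

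Thinned to 2000 UMIs, 27 of 31 cycling cells of library 2 (87.1%) and 72 of 83 of library 3 (86.7%) had a UMI of the replication list, and 28 (90.3%) and 75 (90.4%) one of the mitosis list. The median number of mitosis UMIs at this depth was 8 in library 2 and 4 in library 3. The ranges overlapped, from 0 to 33 and from 0 to 20. Because the rule favours cells with mitosis transcripts, these mitosis values describe the members.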

How the data were processed

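Counts of UMIs per gene and cell were deposited by the authors in 1 matrix of 27998 genes and 2149 cells. Per the submitters' processing notes, Cell Ranger 2.0.1 and the build mm10 were used, and the role of each is not given there. The labels name 10x Genomics 3′ v2 reagents. How barcodes were called cells is not given in the sources used here. Libraries are the barcode numbers 1 to 3 and could not be mapped to Ctrl, D0 or D2, so every sample stayed out of group comparisons.

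Clusters came from Python 3.11.15 with scanpy 1.11.5 and igraph 0.11.9 (2000 variable genes without cell cycle genes, 30 components, 15 neighbours, Leiden resolution 0.5). A marker counted for a cluster when at least 30% of its cells had a UMI and its CPM were at least 2-fold the median of the clusters. A class needed 3 counted markers and 1 among the 10 leading genes, and the cluster stayed unnamed where another class had more counted markers. CPM are summed UMIs per 1000000 with exact Poisson intervals, and shares have Clopper-Pearson intervals at 95%. A count of 0 allows 3 counts. Genes with at least 50 UMIs in both groups together were compared at 2-fold after 1 added count shared in proportion to the totals. Genes named were the rule genes and label markers, list members with at least 50 UMIs over the cycling cells, and among the 10 highest and 10 lowest ratios of each comparison, leaving out mitochondrial, ribosomal protein and histone genes, Xist and, for cycling against other cells, cell cycle lists. Outside this rule, marker genes with fewer UMIs (Flt3, Sall1, P2ry13, Slc2a5, the T cell genes), Itgam, cluster-leading Ttr, Ptgds and Sparcl1, and Cdkn2a were also named. The comparisons of microglia-like and monocyte-like cells were added after the classes had been counted. Ratios and thinning were checked on simulated data. Scrublet ran at an expected rate of 5%, and marked cells were kept. T cell (Trac, Trbc2), B cell (Ighm, Iglc2) and other list genes (Ahsp, Gas5, Cebpd) were not analysed here. The members and lists were chosen with earlier results of these data known. Other rules, depths, clusterings and filters were tried as alternatives.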

Additional observations from a re-analysis of the deposited data

Results flagged for a closer look

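A signal appeared in library 1, which the comparisons do not use. By the same rule 4 of its 1263 cells (0.317%, exact binomial interval 0.0864 to 0.809) were cycling, above the 3 that a count of 0 allows. Thinned to 2000 UMIs, 2 of 1192 were. Of these 4 cells, 2 had all 12 microglia markers and none of the 10 cDC2 markers, and they had 4 and 19 rule genes. The other two had 7 and 6 cDC2 markers and 4 and 2 microglia markers. Library 1 was not mapped to a group.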

How the results depend on the processing

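No paired analysis was possible because each library is 1 sample and the libraries could not be mapped to groups. The limits are depth and 1 sample per library: a level of 1 UMI in a group cannot be told from 0. Alternatives that leave out cells with mixed markers, that add the unnamed cluster led by Mgl2, and those of the microglia-like contrast were chosen after seeing the data. The share of cycling cells stayed higher in library 3 than in library 2 under each of the 11 alternatives. In library 3 it was 14.9% and moved to 20.6% with at least 2 rule genes, 8.16% with at least 5, 8.74% at 1000 UMIs, 28.4% at 4000 UMIs and 29.0% without thinning. The microglia-like share of library 3 (41.0%) moved to 0% with cell cycle genes kept, 0% with library 1 included and 30.2% without mixed cells. The cDC2-like share of library 2 (58.1%) moved to 9.68% with cell cycle genes kept and 80.0% without mixed cells. That of library 3 (14.5%) moved to 31.3% at resolution 0.25, 7.23% with cell cycle genes kept, 31.3% with library 1 included and 25.6% without mixed cells. The monocyte-like share of library 3 moved from 18.1% to 28.9% with library 1 included. The cause of these moves was not tested.

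Between libraries in cDC2-like cells, 25 genes were higher and 23 lower. Thinned cells gave 88 and 83 of the same genes' ratios, where fewer counts widen the spread by construction. A minimum of 20 UMIs gave 102 and 113, a minimum of 100 UMIs 12 and 4, and all cycling cells 517 and 184. The mean of per-cell CPM gave 36 lower. With all cycling cells the log2 ratios reversed for Gm42418 (-0.0025), Ccl4 (0.063) and Eif4ebp1 (0.36). For cycling against other cDC2-like cells of library 2, 146 were higher and 50 lower, against 273 and 219 when thinned, 444 and 179 from 20 UMIs, 58 and 17 from 100 UMIs, and 317 and 673 over all classes. In the microglia-like contrast 615 were higher and 236 lower, against 341 and 141 from 100 UMIs, 401 lower when thinned and 375 higher without mixed cells, where 1367 genes were compared. Without thinning, 96.8% of cycling cells of library 2 and 100% of library 3 had a replication UMI, and 100% and 98.8% a mitosis UMI. At 4000 UMIs 95.2% of library 3 had a replication UMI. Over all named genes 319 of 353 values stayed within their counting interval.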

Other observations

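Cdkn2a, the locus of 2 cell cycle inhibitors, was looked at after its values were seen. It had 22 UMIs in 17 of the 34 microglia-like cycling cells of library 3, or 31.9 CPM (lower bound 20.01, upper bound 48.3), with at most 3 UMIs in a cell. It had no UMI in the 31 cycling cells of library 2, in the 15 monocyte-like cycling cells of library 3, or in the 82 microglia-like cells of library 2 without a rule gene, where the interval ended at 7.90 CPM. At 2000 UMIs it was seen in 1 of 34 cells, so the shares of cells cannot be compared across depths.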
